A study of Mus musculus with 10 samples.

Results

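The genes described here encode the nuclear subunits of mitochondrial complex I and the assembly factors named in the same series. They were taken as every row of the deposited expression table with the biotype protein_coding and a gene name beginning with Nduf. This gave 46 of 31285 genes: 37 subunits (Ndufa, Ndufb, Ndufc, Ndufs and Ndufv with a number), 8 assembly factors (Ndufaf) and Ndufab1, the mitochondrial acyl carrier protein, which is also part of the complex. RNA sequencing was carried out on inguinal (subcutaneous) white adipose tissue of 20-month-old mice kept on regular chow, with 5 libraries from Flox mice and 5 from Ad-GHRKO mice. Ad-GHRKO stands for loss of the growth hormone receptor (Ghr) in adipose tissue alone, a knockout by name, and the same samples carry the genotype label GHR Knockdown. The promoter that drives the recombinase is not given in the sources used here. Neither source states that each library came from a separate animal, so p-values measure only the spread between these libraries, which may be technical. In whole tissue, fewer cells of a type and less RNA per cell cannot be told apart.

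Complex I takes electrons from NADH, passes them through a flavin and a chain of iron-sulfur clusters to ubiquinone, and pumps protons across the inner mitochondrial membrane. Its matrix arm is made of the N module, which oxidises NADH, and the Q module, which reduces ubiquinone. Its membrane arm has a proximal and a distal part. A core of subunits does the chemistry, accessory subunits surround it, and assembly factors help to join the modules without staying in the finished enzyme. In white fat the complex feeds on the oxidation of fatty acids and glucose.

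Promoter and coding sequences are shown for the members on which the results turn. RefSeq promoters of the build GRCm38.p6, from 250 bases before to 50 bases after each start, were matched for 40 of the 46 members (42 promoters). They were searched on both strands for motifs named after regulators of nuclear respiratory genes: NRF-1 (GCGCATGC), GABP (CCGGAAG), YY1 (AAGATGGCG) and ERR (AAGGTCA). The first can overlap its own reverse complement, so 1 stretch may match on both strands. The promoter of Ndufv3, the subunit that passed the test below, held none of these letters. Those of Ndufs8 and Ndufb7, subunits with small p-values, each held a GABP match. Those of Ndufa1 and Ndufb10, with p-values close to that of Ndufb7, held none of these motifs. GABP matches were also found for Ndufs3 and Ndufb6, which had larger p-values. That of Ndufaf4, an assembly factor with nearly equal group means, held overlapping NRF-1 matches and a separate one at the start. The stretches shown run from 120 bases before to 30 bases after the start, with motif letters matched on either strand in capitals.
Ndufv3 promoter, chr17:31519995-31520144, plus strand: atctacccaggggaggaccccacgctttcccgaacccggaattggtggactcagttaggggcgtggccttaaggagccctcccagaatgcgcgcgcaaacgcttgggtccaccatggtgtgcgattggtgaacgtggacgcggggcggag
Ndufs8 promoter, chr19:3912745-3912894, minus strand: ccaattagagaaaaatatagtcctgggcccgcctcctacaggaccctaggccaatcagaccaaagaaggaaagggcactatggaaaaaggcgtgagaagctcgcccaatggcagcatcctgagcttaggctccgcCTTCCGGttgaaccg
Ndufb7 promoter, chr8:83566638-83566787, plus strand: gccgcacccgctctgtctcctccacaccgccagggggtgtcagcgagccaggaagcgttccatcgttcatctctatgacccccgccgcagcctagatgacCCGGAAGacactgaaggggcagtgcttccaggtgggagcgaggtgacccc
Ndufaf4 promoter, chr4:24897963-24898112, plus strand: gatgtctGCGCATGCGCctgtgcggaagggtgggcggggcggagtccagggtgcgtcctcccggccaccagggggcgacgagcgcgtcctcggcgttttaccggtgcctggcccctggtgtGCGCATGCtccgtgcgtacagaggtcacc
The NRF-1 letters were found in 11.9% of member promoters and 2.7% of all 32817 promoters in the table, and the YY1 letters in 14.3% and 1.4%. GABP letters were found in 14.3% and 8.9%, and ERR letters in 7.1% and 4.7%. Member promoters also had more G and C, with a median of 59.3% against 52.7%. A match describes the letters only, and binding was not measured here.

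Levels are in FPKM, fragments scaled to exon length and library total. The reads recovered from them came to about 14590000 to 19240000 a library. The targeted gene Ghr spanned 72.9 to 130 FPKM under Flox and 13.0 to 20.1 FPKM under Ad-GHRKO (limma, adjusted p = 6.54e-05). All 10 white adipocyte markers were detected, summing to 11047 to 16747 FPKM in Flox and, lowest in Ad-GHRKO 1, to 6079 to 14460 FPKM in Ad-GHRKO libraries; by limma none was called (4 lower and 1 higher at an unadjusted p under 0.05). Skeletal muscle transcripts set some libraries apart: 20 muscle genes made up 4.891% of the reads in Flox 3, 7.5% in Flox 5 and 12.971% in Ad-GHRKO 1. They made up 0.187% of Ad-GHRKO 5 and 0.008% to 0.02% of the other 6 libraries. Of the B cell markers, 3 of 5 could be tested and none was called by limma or at an unadjusted p under 0.05, and none of 6 epithelial markers passed the filter on low values. Muscle is rich in mitochondria, so results that rest on these libraries are given with and without them. Over all 12785 genes tested, 99 were higher and 181 lower in Ad-GHRKO at an adjusted p under 0.05, so that 64.6% of calls were lower. Of the same genes, 8.49% were lower and 7.86% higher at an unadjusted p under 0.05. TPM scaling, which gives every library the same sum of values per length, moved the all-gene median from 0.04 to 0.15, and 39.7% of calls were then lower. With a trend on exon length removed, 53.6% were.

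Within the family, levels per length spanned a wide range. The mean over all libraries ran from 0.592 to 225 FPKM for the subunits, with a median of 51.9 FPKM, and from 2.84 to 19.9 FPKM for the assembly factors, with a median of 7.84 FPKM. A mean over 100 FPKM was found for 9 subunits, and one under 10 FPKM for 4. The highest member was Ndufa2, an accessory subunit of the N module with a thioredoxin-like fold, at 302, 333, 195, 277 and 288 FPKM in Flox 1 to 5 and 212, 199, 149, 183 and 113 FPKM in Ad-GHRKO 1 to 5. Its groups overlapped through Ad-GHRKO 1 and 2 and Flox 3, and the log2 change was -0.71 with a standard error of 0.21 (limma, adjusted p = 0.119). The lowest was Ndufb2, an accessory subunit of the distal membrane arm, at 0.762, 0.767, 0.486, 0.677 and 0.392 FPKM in Flox and 0.359, 0.426, 0.715, 0.526 and 0.815 FPKM in Ad-GHRKO libraries. All of its values were under 1 FPKM in every library, on 37 to 77 reads, so it failed the filter (at least 1 FPKM in at least 5 libraries) and was the only member not tested. Its exons overlap Braf, Gm16272 and Gm42420 over 7.9% of their length, with 2.6% on the same strand. Of its 318 coding bases, 145 are identical in Gm42420, so its level is uncertain. The 3 genes that stand as markers of the complex, Ndufs1, Ndufv1 and Ndufaf1, were detected in all 10 libraries.

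Nuclear complex I subunits were nearly all lower on average in Ad-GHRKO fat, by amounts that mostly did not pass the test with all libraries. Their median log2 change, on the scale of log2(FPKM + 1), was -0.50, against 0.04 over all genes tested. A negative value was found for 35 of the 36 tested, against 44.3% of all genes. With TPM scaling the median was -0.40 against 0.15, and 33 of 36 were negative, against 30.5% of all genes. Of the 36, 1 subunit, Ndufv3, fell at an adjusted p under 0.05, where 1.42% of all genes were called lower, and none rose, where 0.774% were called higher. At an unadjusted p under 0.05, 25 of 36 were lower, against 8.49% of all genes. In 5 of 36, every Ad-GHRKO library was below every Flox library, against 3.35% of all genes, and in none was every Ad-GHRKO library above, against 1.62%. The summed FPKM of the 37 subunits was 2782, 3116, 2448, 2725 and 3036 in Flox 1 to 5 and 2547, 2089, 1737, 2079 and 1547 in Ad-GHRKO 1 to 5. Ad-GHRKO 1, the library with the most muscle reads, was the only one of its group inside the Flox range.

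Without Ad-GHRKO 1, the subunits' median log2 change was -0.63, and 23 of 36 passed at an adjusted p under 0.05 (limma), all of them lower. Of all genes, 3.18% were then called lower and 6.09% higher. Flox 3 and Flox 5, with their muscle reads, stayed in this fit. Its 7 tested muscle genes were all negative, with a median log2 change of -2.11. Muscle and genotype cannot be told apart in this fit. In 23 of 36, Ad-GHRKO 2 to 5 all lay below every Flox library, against 4.97% of all genes. Without the 3 muscle-rich libraries (Flox 3, Flox 5 and Ad-GHRKO 1), 16 of 36 were called lower against 3.12% of all genes, and all 16 were among the 23; none was higher, against 2.96%. Without Ad-GHRKO 5 as well, 10 were called lower against 2.45% of all genes, and none higher against 2.83%. With the muscle list's score as a covariate none was higher against 2.39% of all genes, and 7 were lower against 4.05%: Ndufv3, Ndufa6, Ndufa12, Ndufs8, Ndufa1, Ndufb7 and Ndufb10. With array weights, which give libraries that deviate less weight, 24 were lower against 5.41% of all genes and none higher against 7.85%. The direction of the median was the same in all of these fits, and the number of calls was not. The part of muscle in the changes with all libraries was not tested beyond these fits.

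**Figure D1:**
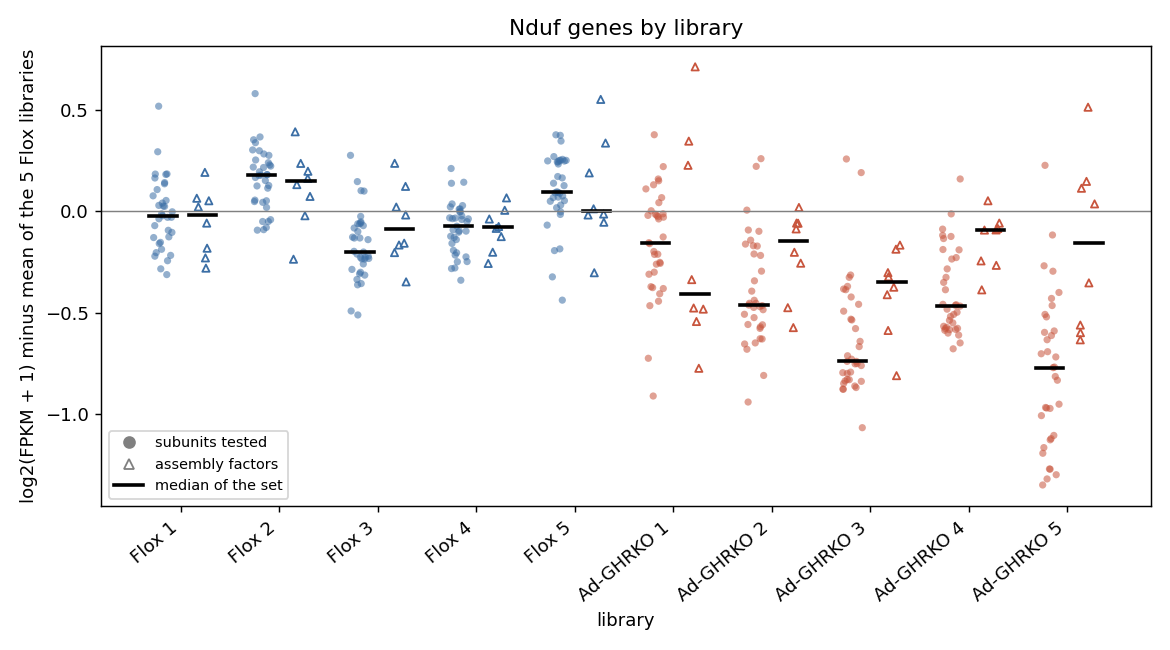
Each member's log2(FPKM + 1) minus its mean over the 5 Flox libraries (vertical axis), by library (horizontal axis), with filled circles for 35 of the subunits tested, open triangles for the 8 assembly factors and black bars for the median of each set. Most subunits of Ad-GHRKO 2 to 5 lie below 0, those of Ad-GHRKO 1 lie nearer to 0, and in Ad-GHRKO 5 the median of the subunits lies well below that of the assembly factors.

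**Figure D2:**
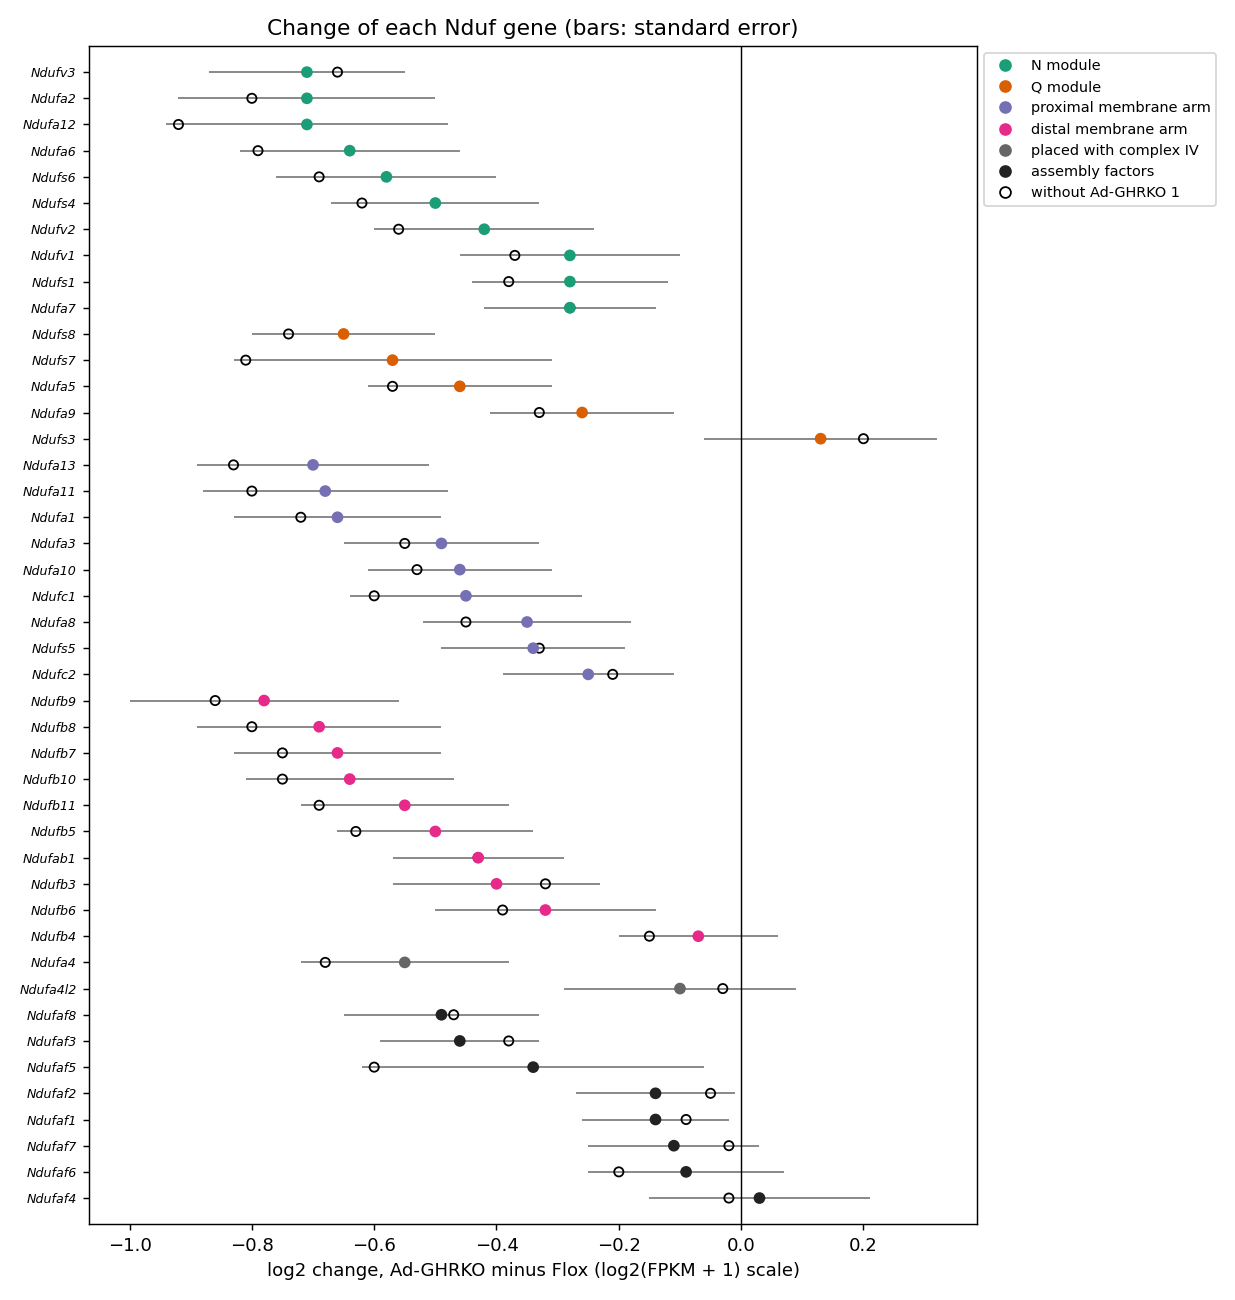
Log2 change of each of 44 tested members (horizontal axis, Ad-GHRKO minus Flox on the log2(FPKM + 1) scale; filled circles by module, bars 1 standard error either side) and the value without Ad-GHRKO 1 (open circles). Most values of every module are negative, Ndufs3 lies above 0, and most open circles of subunits lie left of the filled ones.

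The N module had 1 of its 10 members called lower, against 1.42% of all genes, and a median log2 change of -0.54. Ndufv3 (ENSMUSG00000024038, chr17:31520115-31531331, GRCm38 as for all coordinates of the table), an accessory subunit bound to the flavoprotein at the tip of the arm, stood at 52.6, 60.1, 40.6, 42.9 and 40.8 FPKM across Flox 1 to 5, against 24.4, 33.9, 27.6, 33.2 and 23.7 FPKM across Ad-GHRKO 1 to 5. Every Ad-GHRKO library was below every Flox library. The means were 47.4 ± 8.64 and 28.6 ± 4.79 FPKM (SD, n = 5 each), and the log2 change was -0.71 with a standard error of 0.16 (limma, adjusted p = 0.0468). The call held without Ad-GHRKO 1 (adjusted p = 0.0332) and was lost without any 1 of the other 9 libraries, with adjusted p from 0.0562 to 0.121. It held without the 3 muscle-rich libraries (limma, adjusted p = 0.0388) and with the muscle covariate (adjusted p = 0.00813). It was lost without the 4 libraries with muscle reads (adjusted p = 0.0542). Ndufa6 (ENSMUSG00000022450, chr15:82350140-82354322), an accessory subunit of the LYR family that binds the acyl carrier protein, stood at 69.1, 67.3, 77.3, 58.5 and 78.3 FPKM across Flox 1 to 5, against 67.9, 35.8, 44.3, 45.6 and 35 FPKM across Ad-GHRKO 1 to 5. Ad-GHRKO 1 lay inside the Flox range and the other 4 below it. The log2 change of Ndufa6 was -0.64 with a standard error of 0.18 (limma, adjusted p = 0.108), and without Ad-GHRKO 1 it was -0.79 (limma, adjusted p = 0.00884). Ndufa6 also passed without the 3 muscle-rich libraries (-0.69, limma, adjusted p = 0.0333) and with the muscle covariate (-0.61, adjusted p = 0.032).

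The core subunits of the N module had smaller log2 differences than most of its accessory ones. Ndufv1 (ENSMUSG00000037916, chr19:4007384-4012806), which binds NADH and the flavin, stood at 95, 102, 81.2, 80.8 and 111 FPKM across Flox 1 to 5, against 97.8, 82.8, 69.3, 85.5 and 54.3 FPKM across Ad-GHRKO 1 to 5. The groups overlapped, and the log2 change was -0.28 with a standard error of 0.18 (limma, adjusted p = 0.472). Ndufs1 (ENSMUSG00000025968, chr1:63143596-63176833), which holds several of the iron-sulfur clusters, stood at 11.7, 13.5, 15.6, 13.4 and 19.1 FPKM across Flox 1 to 5, against 15.7, 11.6, 9.66, 12.2 and 10.2 FPKM across Ad-GHRKO 1 to 5. Its groups overlapped too, with Flox 5 and Ad-GHRKO 1 the highest of their groups, and the log2 change was -0.28 with a standard error of 0.16 (limma, adjusted p = 0.432). Neither passed without Ad-GHRKO 1 (adjusted p = 0.171 for Ndufv1 and 0.114 for Ndufs1). Ndufv2, the core partner of Ndufv1, had a log2 change of -0.42 (adjusted p = 0.264), and -0.56 without Ad-GHRKO 1 (adjusted p = 0.0269). Ndufv2 did not pass without the 3 muscle-rich libraries (-0.51, limma, adjusted p = 0.0615) or without the 4 with muscle reads (-0.55, adjusted p = 0.0644). With the muscle covariate it did not pass either (-0.39, adjusted p = 0.115). The other accessory members ran from -0.28 for Ndufa7 to -0.71 for Ndufa2 and Ndufa12. Over the 7 nuclear core subunits of both matrix modules, the median was -0.42 and none was called by limma. At an unadjusted p under 0.05, 3 were lower, against 8.49% of all genes. Without Ad-GHRKO 1, 4 were called lower, against 3.18% of all genes, and without the 3 muscle-rich libraries 2 were, against 3.12%. The difference between core and accessory subunits was not tested.

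The Q module had none of its 6 members called by limma and a median log2 change of -0.49. At an unadjusted p under 0.05, 3 of the 6 were lower, against 8.49% of all genes. Ndufs8 (ENSMUSG00000059734, chr19:3908863-3912774), a core subunit that carries iron-sulfur clusters on the path to ubiquinone, stood at 54.7, 68.2, 56.9, 60.7 and 73.6 FPKM across Flox 1 to 5, against 50.5, 40, 36.4, 41.3 and 31.4 FPKM across Ad-GHRKO 1 to 5. The groups did not overlap. The means were 62.8 ± 7.92 and 39.9 ± 7.04 FPKM (SD, n = 5 each), and the log2 change was -0.65 with a standard error of 0.15 (limma, adjusted p = 0.0502). Without Ad-GHRKO 1 it passed, at -0.74 (adjusted p = 0.0115). It also passed without the 3 muscle-rich libraries (-0.70, limma, adjusted p = 0.0307) and with the muscle covariate (-0.64, adjusted p = 0.0233). Ndufa5 (ENSMUSG00000023089, chr6:24518666-24528013), an accessory subunit, stood at 44.6, 52.3, 43.6, 44.4 and 43.4 FPKM across Flox 1 to 5, against 44.9, 32.7, 25, 32.8 and 31.7 FPKM across Ad-GHRKO 1 to 5. Ad-GHRKO 1 lay inside the Flox range, with the other 4 below it, and the log2 change was -0.46 with a standard error of 0.15 (limma, adjusted p = 0.153). Ndufs7, a core subunit near the quinone site, spread widely in the Ad-GHRKO group, at 65.4 ± 31.1 FPKM (SD, n = 5), against 91.2 ± 12.5 FPKM in the Flox group. Ad-GHRKO 1, at 118 FPKM, was above every Flox library, and Ad-GHRKO 5 was the lowest, at 35.6 FPKM. The log2 change of Ndufs7 was -0.57 (limma, adjusted p = 0.31) with all libraries, and -0.81 (adjusted p = 0.0247) without Ad-GHRKO 1. Ndufs7 did not pass without the 3 muscle-rich libraries (-0.77, limma, adjusted p = 0.0689) or without the 4 with muscle reads (-0.60, adjusted p = 0.0609). With the muscle covariate it did not pass either (-0.54, adjusted p = 0.215).

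Ndufs3 (ENSMUSG00000005510, chr2:90894634-90904827), another core subunit of the Q module, had the largest positive log2 change among the members. It stood at 2.49, 2.08, 1.08, 1.13 and 0.796 FPKM across Flox 1 to 5, against 1.23, 1.84, 1.78, 1.72 and 1.85 FPKM across Ad-GHRKO 1 to 5. The Ad-GHRKO values lay inside the Flox range, and the log2 change was 0.13 with a standard error of 0.19 (limma, adjusted p = 0.779). It became -0.02 without the 3 muscle-rich libraries and -0.03 without the 4 libraries with muscle reads, and it rested on 33 to 86 reads a library. These values are far below those of the other core subunits, and a near-identical pseudogene described below held most of the reads of the pair.

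The proximal membrane arm had none of 9 members called and a median log2 change of -0.46. At an unadjusted p under 0.05, 7 of the 9 were lower, against 8.49% of all genes. Ndufa1 (ENSMUSG00000016427, chrX:37187588-37191163), a small membrane subunit encoded on the X chromosome, stood at 136, 174, 120, 164 and 157 FPKM across Flox 1 to 5, against 112, 106, 93.3, 97.1 and 67.8 FPKM across Ad-GHRKO 1 to 5. The groups did not overlap, and the log2 change was -0.66 with a standard error of 0.17 (limma, adjusted p = 0.0769). Ndufa13 (ENSMUSG00000036199, chr8:69894180-69902558), an accessory membrane subunit needed for the complex to assemble, stood at 130, 154, 109, 118 and 125 FPKM across Flox 1 to 5, against 113, 78.4, 69, 84.3 and 54.6 FPKM across Ad-GHRKO 1 to 5. Ad-GHRKO 1 lay inside the Flox range and the other 4 below it. The log2 change of Ndufa13 was -0.70 with a standard error of 0.19 (limma, adjusted p = 0.0898). Of its exon length, 30% overlaps Tssk6 on the opposite strand. Without Ad-GHRKO 1, 5 of the 9 were called lower by limma, against 3.18% of all genes. Ndufa1, at -0.72 (adjusted p = 0.0281), and Ndufa13, at -0.83 (adjusted p = 0.0136), were among them. Without the 3 muscle-rich libraries 2 of the 9, Ndufa1 and Ndufa13, were called lower, against 3.12%. With the muscle covariate Ndufa1 passed (limma, adjusted p = 0.0392) and Ndufa13 did not (adjusted p = 0.0525). Ndufc2 had the smallest log2 difference of the module, at -0.25 (adjusted p = 0.408).

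The distal membrane arm had none of its 10 tested members called and a median log2 change of -0.53. At an unadjusted p under 0.05, 8 of the 10 were lower, against 8.49% of all genes. Ndufb7 (ENSMUSG00000033938, chr8:83566671-83571626), an accessory subunit facing the intermembrane space, stood at 36.6, 37.2, 28.9, 35 and 42.9 FPKM across Flox 1 to 5, against 28.7, 24.6, 20.2, 24.7 and 15.4 FPKM across Ad-GHRKO 1 to 5. The highest Ad-GHRKO library was just under the lowest Flox library, and the log2 change was -0.66 with a standard error of 0.17 (limma, adjusted p = 0.0766). Ndufb10 (ENSMUSG00000040048, chr17:24722060-24724478), a partner on the same face, stood at 181, 177, 162, 161 and 178 FPKM across Flox 1 to 5, against 148, 116, 103, 115 and 79.1 FPKM across Ad-GHRKO 1 to 5. Its groups did not overlap, and the log2 change was -0.64 with a standard error of 0.17 (limma, adjusted p = 0.0777). The largest negative log2 change of any member was that of Ndufb9, at -0.78 (adjusted p = 0.0988), with means of 26.5 ± 8.19 and 14.7 ± 3.18 FPKM. Of its exon length, 19.5% overlaps Gm49356 on the same strand. Ndufb4 was nearly level, with means of 30 ± 1.97 and 28.7 ± 4.55 FPKM and a log2 change of -0.07 (adjusted p = 0.831) that became 0.04 with TPM scaling. Without Ad-GHRKO 1, 6 of the 10 were called lower by limma, against 3.18% of all genes. Ndufb7, at -0.75 (adjusted p = 0.0224), and Ndufb10, at -0.75 (adjusted p = 0.0131), were among them. Without the 3 muscle-rich libraries 5 of the 10 were called lower, against 3.12%. Ndufab1, the acyl carrier protein, is counted among these 10 and was at 5.03 ± 1.26 and 3.4 ± 0.212 FPKM with no overlap between the groups, and its log2 change was -0.43 with a standard error of 0.14 (limma, adjusted p = 0.145). The row Ndufb1-ps, listed as an lncRNA and so outside the rule, had a log2 change of -0.29 (adjusted p = 0.318).

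Ndufa4 and Ndufa4l2 keep complex I names, and their proteins are now placed with complex IV. Ndufa4 (ENSMUSG00000029632, chr6:11900292-11907497) stood at 167, 190, 160, 175 and 187 FPKM across Flox 1 to 5, against 173, 123, 98.2, 118 and 99.2 FPKM across Ad-GHRKO 1 to 5. Ad-GHRKO 1 lay inside the Flox range and the other 4 below it. The log2 change was -0.55 with a standard error of 0.17 (limma, adjusted p = 0.134), and -0.68 without Ad-GHRKO 1 (adjusted p = 0.0125). Ndufa4 passed without the 3 muscle-rich libraries (-0.70, limma, adjusted p = 0.029) and without the 4 with muscle reads (-0.65, adjusted p = 0.0423). With the muscle covariate Ndufa4 did not pass (-0.53, adjusted p = 0.0639). Ndufa4l2 (ENSMUSG00000040280, chr10:127514967-127517154), a paralogue known as a target of hypoxia-inducible factor, stood at 8.41, 8.9, 6.37, 5.32 and 5.13 FPKM across Flox 1 to 5, against 4.89, 8.19, 8.18, 5.12 and 5.25 FPKM across Ad-GHRKO 1 to 5. The groups covered nearly the same range, and the log2 change of Ndufa4l2 was -0.10 with a standard error of 0.19 (limma, adjusted p = 0.854), which became 0.01 with TPM scaling. Without this pair, 1 of 34 subunits was called lower and the median stayed at -0.50.

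The median log2 change of the 8 assembly factors was -0.14, against -0.50 for the subunits, and the difference between the sets was not tested. None was called in either direction by limma with all libraries, and 7 of 8 had a negative value. At an unadjusted p under 0.05, 2 of the 8 were lower and none higher, against 8.49% and 7.86% of all genes. Ndufaf3 (ENSMUSG00000070283, chr9:108565537-108567434), which acts early on the Q module, stood at 14.4, 16.4, 12.6, 13.4 and 14.3 FPKM across Flox 1 to 5, against 7.86, 11.7, 10.4, 11.8 and 9.01 FPKM across Ad-GHRKO 1 to 5. It was the only one of the 8 whose groups did not overlap. Of all genes, 3.35% had every Ad-GHRKO library below every Flox library. The log2 change of Ndufaf3 was -0.46 with a standard error of 0.13 (limma, adjusted p = 0.115). Ndufaf8 (ENSMUSG00000078572, chr11:120098928-120100705), a partner of Ndufaf5, stood at 26.5, 30.6, 17.9, 24.2 and 18.5 FPKM across Flox 1 to 5, against 15.5, 16.3, 15, 19 and 15.3 FPKM across Ad-GHRKO 1 to 5. Its groups overlapped through Flox 3 and 5, and the log2 change was -0.49 with a standard error of 0.16 (limma, adjusted p = 0.149). Ndufaf1 (ENSMUSG00000027305, chr2:119655446-119662827), which helps to build the membrane arm, stood at 13.2, 15.2, 13.6, 13.4 and 13.6 FPKM across Flox 1 to 5, against 10.7, 13.2, 10.4, 13.2 and 15 FPKM across Ad-GHRKO 1 to 5. The Flox values lay close together apart from Flox 2, and the Ad-GHRKO values lay within their range or below it. For Ndufaf1, the log2 change was -0.14 with a standard error of 0.12 (limma, adjusted p = 0.628).

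Among the other assembly factors, the log2 change with all libraries was negative for all but Ndufaf4. Ndufaf5, an enzyme that modifies Ndufs7, was highest by far in Ad-GHRKO 1, at 15.1 FPKM against 4.59 to 6.5 FPKM in Ad-GHRKO 2 to 5 and 7.21 to 13.4 FPKM in Flox. Its log2 change was -0.34 (adjusted p = 0.603), and -0.60 without Ad-GHRKO 1 (adjusted p = 0.0587). Ndufaf7, a methyltransferase, Ndufaf2, a relative of Ndufa12, and Ndufaf6, an early factor, had log2 changes of -0.11, -0.14 and -0.09, the last of which became 0.01 with TPM scaling. Ndufaf4, the partner of Ndufaf3, had means of 4.05 ± 0.749 and 4.22 ± 1.29 FPKM and a log2 change of 0.03 (adjusted p = 0.961), which was -0.03 with quantile normalization. The exons of Ndufaf2 overlap those of B230220B15Rik over 65.6% of their length, on the opposite strand. Without Ad-GHRKO 1 none of the 8 was called. Without the 3 muscle-rich libraries Ndufaf8 was called lower by limma (log2 change -0.69, adjusted p = 0.0277), against 3.12% of all genes. With the muscle covariate Ndufaf8 (adjusted p = 0.0313) and Ndufaf3 (adjusted p = 0.0257) were, against 4.05%.

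The gap between subunits and assembly factors was smaller in 4 Ad-GHRKO libraries than in any Flox library. The mean log2(FPKM + 1) of the subunits was 5.79, 5.96, 5.64, 5.72 and 5.92 in Flox 1 to 5 and 5.67, 5.41, 5.17, 5.40 and 5.01 in Ad-GHRKO 1 to 5. That of the assembly factors was 3.19, 3.36, 3.18, 3.16 and 3.34 in Flox and 3.08, 3.04, 2.85, 3.10 and 3.08 in Ad-GHRKO libraries. Subtracting the second from the first gave 2.46 to 2.59 in Flox, 2.59 in Ad-GHRKO 1, 2.30 to 2.37 in Ad-GHRKO 2 to 4 and 1.93 in Ad-GHRKO 5. Ad-GHRKO 5 had the lowest value of its group for 23 of 37 subunits and the highest for 4 of 8 assembly factors. It was also the shallowest library, and had the highest summed level of the 7 macrophage markers, at 2006 FPKM against 439 to 1424 FPKM in Flox. The part of depth and of macrophages in this difference was not tested. None of the macrophage markers passed the test (limma), with 1 higher and none lower at an unadjusted p under 0.05. Over all genes, 7.86% were higher and 8.49% lower at that threshold.

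**Figure D3:**
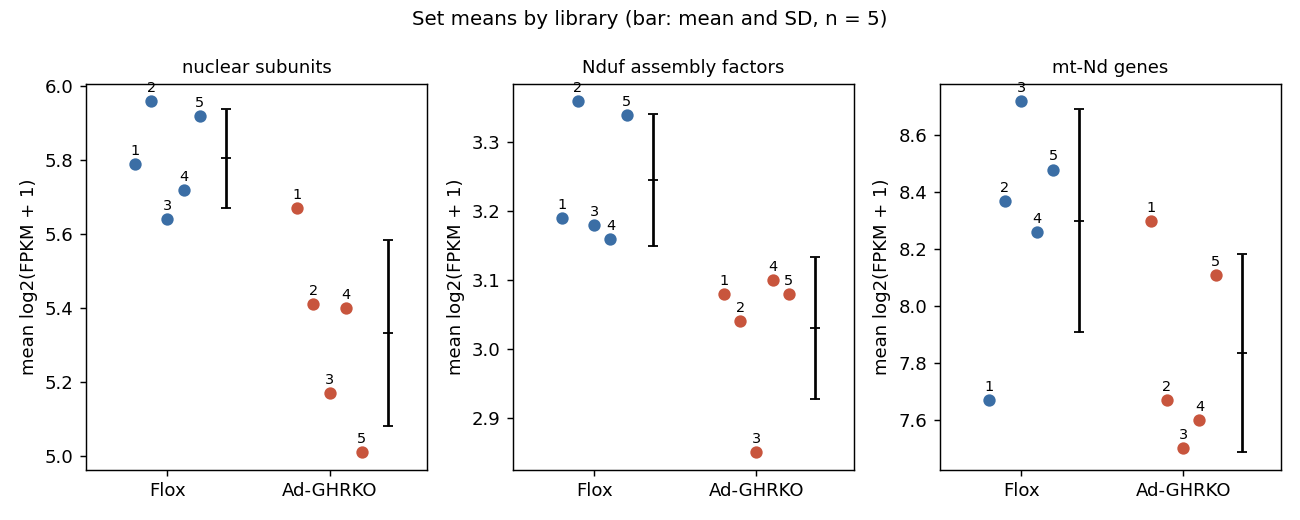
Mean log2(FPKM + 1) (vertical axes, which do not start at 0) of the nuclear subunits, the Nduf assembly factors and the mitochondrially encoded subunits, by library (points, numbered by replicate) and group (horizontal axis), with the group mean and SD (n = 5). For the nuclear subunits Ad-GHRKO 1, at 5.67, lies in the Flox range of 5.64 to 5.96, and Ad-GHRKO 5 is the lowest at 5.01.

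The muscle-rich libraries did not raise all members alike. Ad-GHRKO 1 was the highest of its group for 29 of 37 subunits, above the lowest Flox library for 26 and above the Flox mean for 9. On the log2(FPKM + 1) scale, its median subunit was 0.36 above the mean of Ad-GHRKO 2 to 4, while the median difference of Flox 3 and 5 from the other Flox libraries was -0.04. Some members were high in both comparisons: Ndufaf5 (1.30 in Ad-GHRKO 1 and 0.56 in Flox 3 and 5), Ndufa12 (0.98 and 0.37), Ndufs7 (1.01 and 0.10) and Ndufa6 (0.69 and 0.26). Others were low in both, among them Ndufv3 (-0.35 and -0.33), Ndufs3 (-0.32 and -0.55) and Ndufc2 (-0.20 and -0.35). Counting any difference above or below 0, 17 members were high in both and 13 low in both. The share over all genes was not computed, so these counts are not read as a trait of the members. In Flox 3, the summed subunit FPKM was the lowest of its group, with muscle reads present. Of the 20 muscle markers, 7 passed the filter on low values, and none was called by limma or at an unadjusted p under 0.05. Their summed level was 37.3 to 38169 FPKM in Flox against 75.7 to 65952 FPKM in Ad-GHRKO libraries, and Ckm, Ckmt2, Myh2, Myh4, Tnnc2 and Pvalb were each listed at 0 in at least 1 library.

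**Figure D4:**
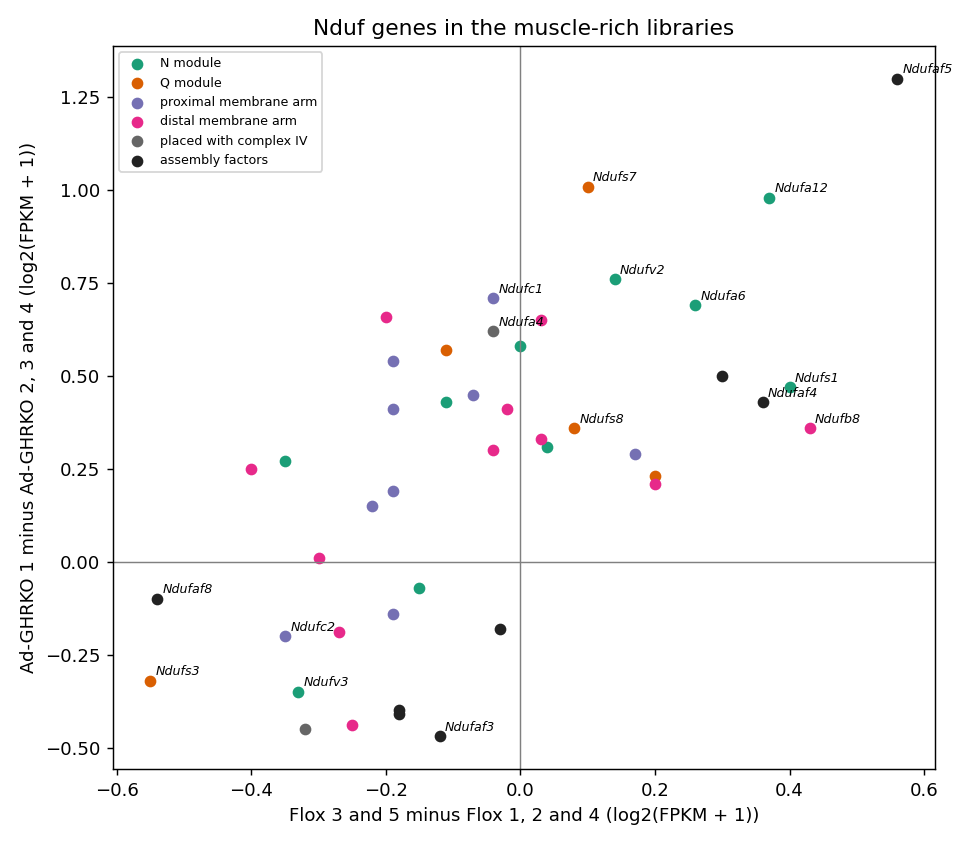
For each of 45 members, the difference in log2(FPKM + 1) between Flox 3 and 5 and the other Flox libraries (horizontal axis) and between Ad-GHRKO 1 and Ad-GHRKO 2 to 4 (vertical axis), coloured by module. Ndufaf5 and Ndufa12 lie at the upper right, and Ndufv3, Ndufs3 and Ndufc2 at the lower left.

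Several members share nearly all of their coding sequence with a processed pseudogene that the table lists as a gene of its own. Ndufs3 differs from Gm12251 at 11 of 792 coding bases (98.6% identity), and Gm12251 took 68.9% of the reads of the pair, summed over all libraries. The first 120 coding bases show 4 of these differences, with the mismatched bases in capitals.
Ndufs3, coding bases 1 to 120: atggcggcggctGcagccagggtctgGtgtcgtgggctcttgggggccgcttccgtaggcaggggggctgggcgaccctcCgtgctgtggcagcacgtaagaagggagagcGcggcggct
Gm12251, aligned bases: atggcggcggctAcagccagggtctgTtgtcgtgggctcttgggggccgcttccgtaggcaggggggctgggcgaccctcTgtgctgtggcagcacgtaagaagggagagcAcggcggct
Ndufa12 differs from Gm15920 at 2 of 402 aligned bases (99.5%), and the pseudogene took 20.6% of the reads. The stretch shown holds 1 of these differences.
Ndufa12, coding bases 49 to 168: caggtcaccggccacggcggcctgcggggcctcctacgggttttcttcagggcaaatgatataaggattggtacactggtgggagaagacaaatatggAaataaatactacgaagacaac
Gm15920, aligned bases: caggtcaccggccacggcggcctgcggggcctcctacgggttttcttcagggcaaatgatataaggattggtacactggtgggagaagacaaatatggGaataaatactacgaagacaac
Ndufab1 has copies in Gm4459 (99.8% identity, 21.7% of the reads of that pair) and Ndufab1-ps (99.4%, 16.7%). Smaller shares lay on Ndufb4c beside Ndufb4 (5.7%), on BC002163 beside Ndufs5 (2.1%) and on Ndufs6b beside Ndufs6 (1.4%). How reads that match both places were counted is not given in the sources used here, so the levels of these members are uncertain. With the reads of member and copy summed and scaled to the library total (RPM), Ndufs3 with Gm12251 came to 12.6 ± 2.80 RPM in Flox and 10.5 ± 1.70 in Ad-GHRKO libraries, a log2 ratio of means of -0.27. For Ndufa12 with Gm15920 these were 105 ± 19.3 and 67.5 ± 29.9 RPM (SD, n = 5 each), a log2 ratio of -0.64. The sum thus had the opposite sign from Ndufs3 alone, and the difference in neither sum was tested.

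**Figure D5:**
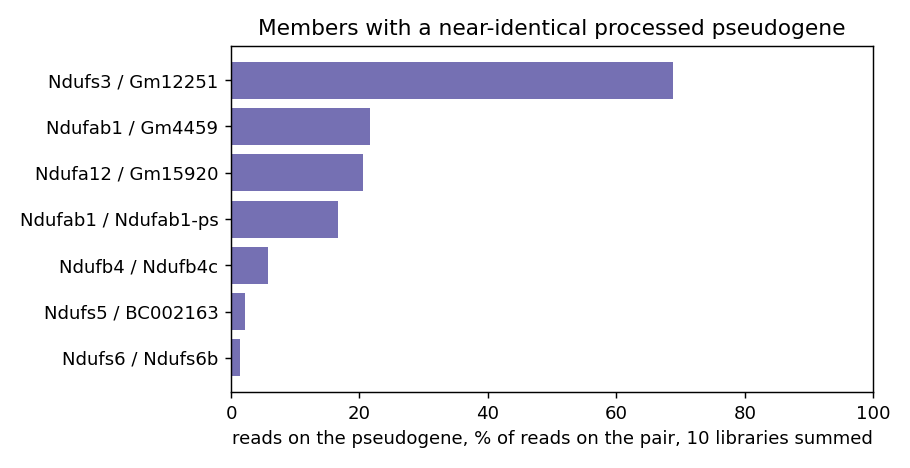
Share of reads on the pseudogene, in % of the reads on member and pseudogene together over the 10 libraries (horizontal axis), for each pair with at least 1% (vertical axis). Gm12251 holds 68.9% of the reads of its pair with Ndufs3, and the others hold 1.4% to 21.7%.

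The other parts of complex I were read from lists of named genes. Over all genes, 8.49% were lower and 7.86% higher at an unadjusted p under 0.05. The 7 subunits encoded in the mitochondrial genome, which form the core of the membrane arm, all had negative log2 changes, with a median of -0.45, and none was called by limma (2 lower and none higher at an unadjusted p under 0.05). The smallest p was that of mt-Nd3, at 11.9 ± 4.08 FPKM in Flox against 6.45 ± 2.45 FPKM in Ad-GHRKO libraries (log2 change -0.79, adjusted p = 0.186). It was followed by mt-Nd4 (-0.62, adjusted p = 0.248) and mt-Nd6 (-0.37, adjusted p = 0.397). Libraries were made from polyadenylated RNA, and these genes spread widely within groups: mt-Nd1 was at 1743 FPKM in Flox 1 and 2898 to 3785 FPKM in Flox 2 to 5, and at 1439 to 3460 FPKM in Ad-GHRKO libraries. Of 14 assembly factors with other names, 13 were tested, all had negative values with a median of -0.18, and none was called (4 lower and none higher unadjusted). Oxa1l, the insertase of the inner membrane, came nearest, at 16.4 ± 1.22 FPKM in Flox against 11.8 ± 1.13 FPKM in Ad-GHRKO libraries (log2 change -0.45, adjusted p = 0.0643). Foxred1 (-0.39, adjusted p = 0.209) and Ecsit (-0.45, adjusted p = 0.251) followed. Of these 13, 2 were called lower without Ad-GHRKO 1, without the 3 or the 4 libraries, with the muscle covariate or with array weights. The shares of all genes called lower in these fits were, in turn, 3.18%, 3.12%, 2.45%, 4.05% and 5.41%. Of the 7 mitochondrially encoded subunits, 2 were called lower with array weights, against 5.41% of all genes.

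The other respiratory complexes had negative median log2 changes too. With all libraries, 1.42% of all genes were called lower, and 8.49% were lower at an unadjusted p under 0.05. Of the nuclear subunits of complexes II and III, 2 of 13 were called lower with a median log2 change of -0.53 (Uqcrh, -0.76, adjusted p = 0.0246; Uqcrq, -0.91, adjusted p = 0.0446). Of complex IV, 3 of 10 were called lower with a median of -0.71 (Cox5b, -0.79, adjusted p = 0.0196; Cox4i1, -0.82, adjusted p = 0.0468; Cox6b1, -0.73, adjusted p = 0.047). Of complex V, 1 of 17 was, with a median of -0.46 (Atp5k, -0.84, adjusted p = 0.0385). None of these genes was called higher. Without Ad-GHRKO 1 the calls were 9 of 13, 6 of 10 and 10 of 17, against 3.18% of all genes, and without the 3 muscle-rich libraries they were 5, 5 and 9, against 3.12%. With median ratio scaling none was called in these complexes, and with TPM scaling or with the length trend removed 1 was, in complexes II and III. The medians were negative in all of these fits. Differences between the complexes were not tested. The iron-sulfur assembly genes supply clusters to the complex, and by limma none of the 12 tested was called (1 lower at an unadjusted p under 0.05, median -0.12). The same held for 6 other genes of electron entry to ubiquinone (2 lower unadjusted, median -0.31) and for 10 genes of mitochondrial import and mass (3 lower unadjusted, median -0.19). Without Ad-GHRKO 1, where 3.18% of all genes were called lower, 1 import and mass gene and 1 iron-sulfur gene were. Each list also had 1 without the 3 or the 4 libraries, against 3.12% and 2.45% of all genes. With array weights each had 2, against 5.41%. In addition, 1 import and mass gene was called lower with limma voom, median ratio scaling, the length trend removed or the muscle covariate. With the covariate 1 electron entry gene was too. Among all genes, 222 of 12697 were called lower with limma voom and 294 of 12785 with median ratio scaling. With the length trend removed 285 of 12782 were, and with the covariate 4.05%. Of the regulators whose motifs were searched above, Nrf1 had a log2 change of 0.02, Gabpa of 0.14 and Yy1 of 0.17 (limma, adjusted p = 0.965, 0.698 and 0.536), and Esrra of -0.41 (adjusted p = 0.369). Among 10 regulators tested none was called (1 lower at an unadjusted p under 0.05), and Ppargc1b, a coactivator of respiratory genes, had the smallest p (log2 change -0.68, adjusted p = 0.0629). Of these 10, 1 was called lower without Ad-GHRKO 1, without the 3 muscle-rich libraries, with the muscle covariate and with array weights. The shares of all genes called lower in these fits were, in turn, 3.18%, 3.12%, 4.05% and 5.41%. Of the brown and beige fat markers, 3 of 6 were tested and did not go 1 way: Cidea was lower (log2 change -2.25, adjusted p = 0.0297), Cox8b had a log2 change of -2.02 (adjusted p = 0.176) and Cox7a1 of 0.51 (adjusted p = 0.775). Ucp1, the uncoupling protein of brown fat, did not pass the filter. It was at 0.0343 to 0.0685 FPKM in Flox 1 to 4, 9.76 FPKM in Flox 5, 0.1 FPKM in Ad-GHRKO 1 and 0.586 to 3.57 FPKM in Ad-GHRKO 2 to 5. The summed level of the 6 was 65.7 to 254 FPKM in Flox, 264 FPKM in Ad-GHRKO 1 (of which Cox8b 178, Cox7a1 73.8 and Cidea 7.55) and 19.2 to 44.2 FPKM in Ad-GHRKO 2 to 5, and Elovl3 was listed at 0 in 1 library. Cox7a1 stood highest in the 3 muscle-rich libraries: Flox 3 at 18.4, Flox 5 at 26.8 and Ad-GHRKO 1 at 73.8 FPKM. Its other values lay between 2.59 and 11.5 FPKM. Cox8b peaked in Flox 5 (164) and Ad-GHRKO 1 (178), whereas Flox 3 (95.4) lay below Flox 1 (108). Cidea in Ad-GHRKO 1 lay below every Flox library, whose values spanned 13.1 to 70.8 FPKM. The part of muscle in the summed level, and of brown or beige cells in the subunit values, was not tested.

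Gene length moved with the changes as well. The subunits are short, with a median exon length of 1495 bases against 3905 over all genes tested. The median log2 change of all genes was -0.11 for exon lengths under 1000 bases, -0.08 from 1000 to 2000, -0.01 from 2000 to 4000 and 0.09 from 4000 upward. With the trend on exon length removed from each library, the median of the subunits was -0.45, 33 of 36 were negative, 1 was called lower and 13 were lower at an unadjusted p under 0.05. Of all 12782 genes in this fit, 48.4% were negative, 285 were called lower and 1218 were lower at an unadjusted p under 0.05.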

How the data were processed

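RNA was measured in 10 libraries of inguinal white adipose tissue, 5 per genotype. RNA with poly(A) tails was enriched, fragmented and randomly primed, and the second strand was marked, per the labels' protocols. The authors deposited FPKM values, 1 column per library, per the file headers. The aligner, counter and strand setting were not given in the sources used here. Overlapping genes are therefore uncertain. A build, GRCm39, is named in the submitters' processing notes. Of 31253 genes found in GENCODE release 21 for mouse, 99.54% had exactly its GRCm38 coordinates, which are the ones given. Because FPKM divides by a library total, abundant muscle transcripts lower the values of other genes.

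Multiplying FPKM by exon length and a library constant returned whole numbers of reads (tolerance 0.01) for 99.43% to 99.49% of values. The recovered depth limits the precision of genes under about 1 FPKM. The test was limma (version 3.58.1, R 4.3.3), two-sided, fitted to log2(FPKM + 1) of the 12785 genes that reached 1 FPKM in 5 or more libraries, allowing a mean-variance trend. Benjamini-Hochberg adjusted p-values were called at 0.05. Fold changes on this scale understate those of low genes. The script was tested on simulated data. Coding sequences were compared with all transcripts of GENCODE release 21 with BLAST+ 2.17.0. Tables and figures were made with Python 3.11.15, pandas 2.3.3 and matplotlib 3.10.9.

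The members, lists and tests were chosen with earlier results of these data known. Full values are given for members past the threshold, the 2 smallest p in each module, in the complex IV pair and among the assembly factors, Ndufs1, Ndufv1, Ndufaf1, the largest positive change, and the highest and lowest level. Up to 3 genes with the smallest p were named from other lists. Other members, Nrf1, Gabpa, Yy1, Esrra, mt-Nd1 and Ucp1 were named after their values were seen. Alternatives tried were a filter at 5 FPKM or none, pseudocounts of 0.1 and 0.5, scaling by TPM, median ratios or quantiles, a replicate block, array weights, a muscle covariate, leaving out libraries singly or those with muscle reads, limma voom on the recovered reads, and removal of the exon length trend (lowess, span 0.3). Identical values in a pair of libraries were looked for and not found. The values of 1 member are not reported here singly, and it is counted in the sets.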

Additional observations from a re-analysis of the deposited data

Results flagged for a closer look

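Within a group of 5 libraries, a value was singled out where its gap to the nearest other library exceeded 0.71 of the group's range (Dixon's criterion). Among 90 member groups examined, 8 values did so, and chance alone gives about 1 in 20. Those in Ad-GHRKO 1 were high for Ndufa12 (55.3 FPKM), Ndufaf5 (15.1 FPKM), Ndufb5 (8.48 FPKM) and Ndufc1 (34.3 FPKM) and low for Ndufs3 (1.23 FPKM). This is the library with 12.971% of its reads on the muscle list. In Flox 2, the values of Ndufa5 (52.3 FPKM) and Ndufaf1 (15.2 FPKM) were high, and in Flox 5, one of the libraries with muscle reads, that of Ndufa9 (68.1 FPKM) was. The part of muscle in these values was not tested.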

How the results depend on the processing

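The median log2 change of the subunits was negative in all alternatives run, from -0.63 to -0.40. Their calls depended on the libraries and the filter: with all libraries 1 of 36 was called lower, and 0 without a filter, with TPM scaling and with the replicate block, 2 with a filter of 5 FPKM, 7 with the muscle covariate, 10 without the 4 libraries with muscle reads, 16 without the 3 muscle-rich ones and 24 with array weights. Leaving out single libraries gave 0 to 23, with 23 only without Ad-GHRKO 1, and medians of -0.63 to -0.44. No subunit was called higher in any of them. For the assembly factors 0 were called lower with all libraries, 1 with quantile normalization, with array weights and without the 3 or the 4 libraries, and 2 with the covariate. Their median of -0.14 moved to -0.24 with the filter of 5 FPKM and -0.04 with TPM scaling, and ran from -0.19 to -0.09 without single libraries. The 280 calls over all genes became 117 without a filter, 531 with median ratio scaling, 565 with quantile normalization, 532 with the length trend removed, 823 with the covariate, 777 and 675 without the 3 and the 4 libraries, 1695 with array weights and 116 to 1185 without single libraries. The cause was not tested.

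Members that changed sign were all far from the threshold. Ndufa4l2, Ndufaf6 and Ndufb4 became 0.01, 0.01 and 0.04 with TPM scaling and 0.03, 0.03 and 0.01 with the length trend removed. Ndufs3 became -0.02 and -0.03 without the 3 and the 4 libraries. Ndufaf4 became -0.03 with quantile normalization, -0.07 with array weights, -0.06 without the 4 libraries, and lay between -0.10 and 0.11 without single libraries, negative in 4 of these 10 fits.

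The deviations of same-numbered libraries from their group means had correlations of -0.489, 0.394, -0.034, 0.28 and -0.259, with no shared sign. For number 2 alone, each library was the best match of the other. These values cannot decide whether the numbers pair the samples, because muscle reads also set libraries apart. A fit with the replicate number as a block gave 85 calls over all genes and 0 among the subunits, with Ndufv3 at an adjusted p of 0.0989 (limma). Depth limits Ndufb2 and Ndufs3 most, the members with the fewest reads.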
